A study of Chlorocebus aethiops with 8 samples.

Results

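ME1, the cytosolic malic enzyme, had lower RNA after siRNA against RNA helicase A (RHA) in COS cells on its brightest probe set, and it is described here with 8 genes of related function. The genes were ME1, PGD and IDH1, which make NADPH in the cytosol, and NQO1, HMOX1, GCLM, GCLC, TXNRD1 and SRXN1, which are known targets of the transcription factor NRF2. Members were all probe sets whose annotation gave exactly 1 of these 9 symbols. The genes were chosen by the siRNA contrasts of ME1, which was lower under RHA siRNA, so the siRNA values of ME1 are a description and carry no test. The rule found 14 of the 52865 probe sets on the array, for 5 of the 9 genes: 5 for ME1, 5 for GCLC, 2 for IDH1 and 1 each for GCLM and SRXN1. PGD, NQO1, HMOX1 and TXNRD1 had no probe set under their own symbol in the annotation used, and they were not analysed here.

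ME1 turns malate into pyruvate and reduces NADP to NADPH, the electron donor for fatty acid synthesis and for the glutathione and thioredoxin systems. PGD, of the oxidative pentose phosphate pathway, and IDH1, the cytosolic isocitrate dehydrogenase, make NADPH by other routes. NRF2 is held low by KEAP1 and, under oxidative or electrophilic stress, binds antioxidant response elements with small Maf proteins. Its best known targets include both subunits of glutamate-cysteine ligase (GCLC, the catalytic one, and GCLM, the modifier), the quinone reductase NQO1, heme oxygenase HMOX1, thioredoxin reductase TXNRD1 and sulfiredoxin SRXN1, which repairs oxidised peroxiredoxins. ME1 and PGD are counted among NRF2 targets as well.

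COS cells are a fibroblast-like kidney line of the African green monkey that carries the large T antigen of SV40. RNA of 4 groups was hybridised to rhesus macaque arrays, 2 arrays per group: polysomal RNA under RHA siRNA, polysomal RNA under control siRNA, cytoplasmic RNA under RHA siRNA and cytoplasmic RNA under control siRNA. The RHA siRNAs, designed on the human coding sequence, and the scrambled controls were each used at 0.5 nM in 2 rounds of transfection, each with 4 h free of serum before 24 h in serum. Each array got 25 ng of amplified total RNA, so a level is relative to the other RNA of its fraction. The probes were designed for another species, and all arrays come from 1 cell line. The sample titles number the replicates, and the 4 arrays that share a number form a set (set 1 or set 2). Wherever a pair of values is given for a group, set 1 comes before set 2. Nothing in the labels states that the sets were separate cultures, and p-values here cover no more than the spread from array to array. RNA of a bulk culture cannot tell fewer expressing cells from less RNA per cell.

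The RHA gene DHX9 checked the labels. Its 1 probe set above the limit for testing (MmunewRS.268.1.S1_s_at) had intensities of 97.2 and 269 in polysomal RNA under RHA siRNA, against 359 and 477 under control siRNA. In cytoplasmic RNA it had 130 and 254 under RHA siRNA, against 244 and 342 under control siRNA. The RHA siRNA array was the lower one in 4 of 4 comparisons, each within 1 set. The mean was 49.5% of control (log2 -1.01 ± 0.42, SE, limma adjusted p = 1.00), and the difference was -0.65 without the polysomal RHA siRNA array of set 1. The other DHX9 probe sets, all under the limit, were at 63.0%, 80.5% and 99.8% of control. The RHA siRNA array was lower on them in 3, 3 and 2 of 4 comparisons. The sets differed widely, with 26.8% of 26383 tested probe sets apart by at least 1 log2 unit. Median intensities were 19.3 to 20.8 on the 8 arrays. One array stood apart: cytoplasmic RNA under control siRNA of set 1 had a median Pearson's r of 0.949 with its set, against 0.967 to 0.980 for the others. RNA length was read from actin, GAPDH and elongation factor controls, as the log2 level of the 3′ probe set minus that of the 5′ one. It was 3.94 and 3.95 in polysomal RNA under RHA siRNA and 2.66 and 4.29 under control siRNA, and in cytoplasmic RNA 3.18 and 3.68 under RHA siRNA and 4.25 and 4.00 under control siRNA. As a check of the cell type, 8 of 9 fibroblast markers (vimentin, 4043 to 6345) and 5 of 10 kidney tubule markers (AQP1, 856 to 2262, and PAX8, 77.5 to 113) had a probe set above the limit for testing. So did 3 of 4 leukocyte and 1 of 2 hepatocyte markers, while the pan-leukocyte antigen PTPRC lay under it at 6.70 to 12.9.

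No member was called in any of the 7 contrasts fitted with limma, and neither was any other probe set: the share called was 0.00% in each. For the siRNA effect over both fractions, 540 probe sets (2.05%) had an unadjusted p under 0.05 with limma, and none of the 8 tested probe sets of the members other than ME1 was among them. In the other 6 contrasts 46 to 426 probe sets had one, again with none of these 8. A fit with a term for the set called 2 probe sets (0.00758%), neither of them a member. What follows is therefore a description of values and their spread.

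The brightest ME1 probe set (MmugDNA.40979.1.S1_at) carried the finding that chose the group. Its intensity was 498 and 358 in polysomal RNA under RHA siRNA, against 875 and 873 under control siRNA. In cytoplasmic RNA it was 331 and 243 under RHA siRNA, against 1057 and 1056 under control siRNA. All 4 RHA siRNA arrays lay below all 4 control arrays, as 1.38% of tested probe sets did, and the controls of each fraction differed by less than 1 part in 100 between sets. Over both fractions ME1 was at 36.0% of control (log2 -1.47 ± 0.24, SE, with -1.24 in set 1 and -1.70 in set 2). In cytoplasmic RNA it was at 26.8% of control (log2 -1.90 ± 0.34), and in polysomal RNA at 48.3% (log2 -1.05 ± 0.34). Leaving out any 1 array, here and below in a fit with no term for the set, kept the value over both fractions between -1.59 and -1.35. It was -1.47 without the array that stood apart.

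**Figure D1:**
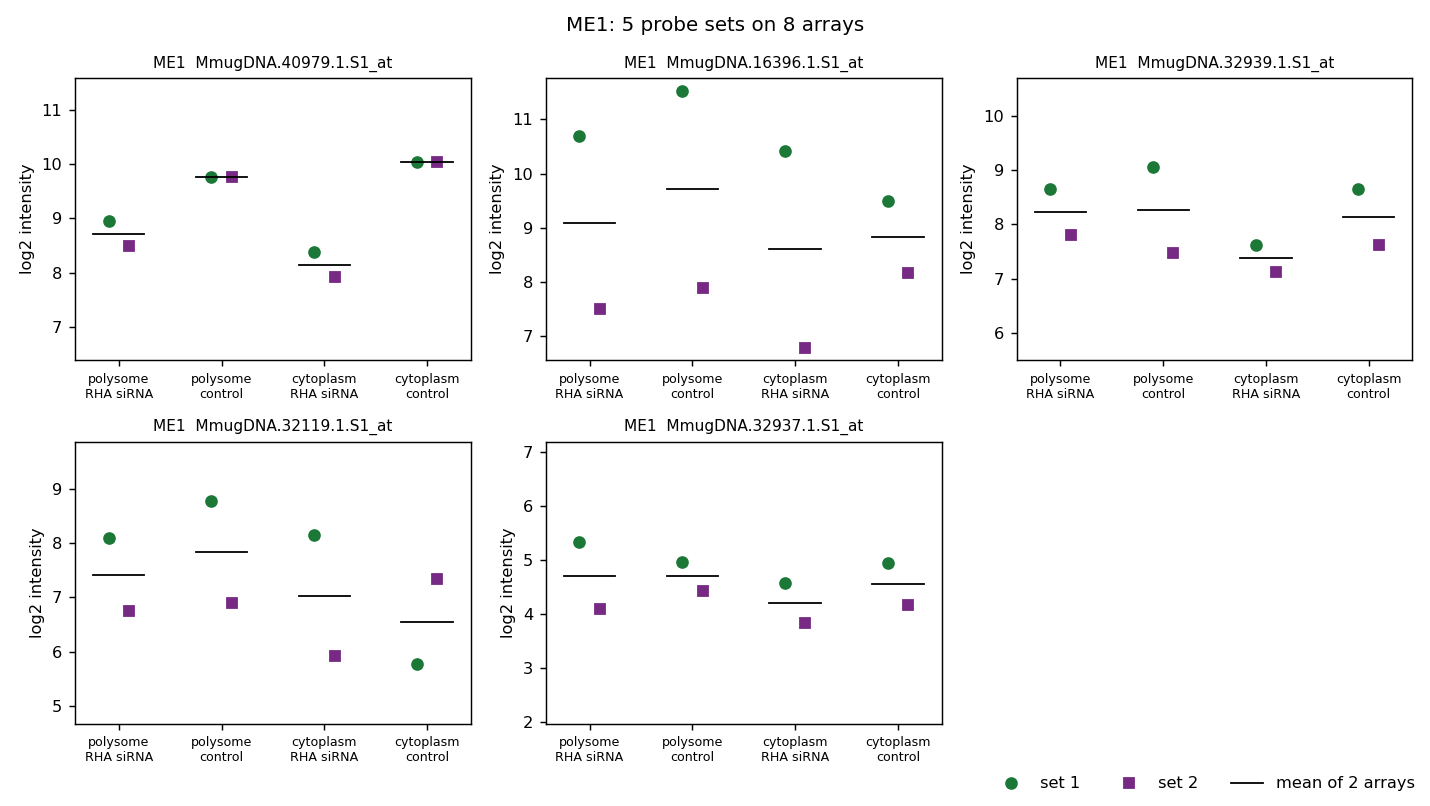
log2 intensity (vertical axis) of the 5 ME1 probe sets on the 8 arrays, by group, with 1 point per array and a bar at the mean of 2 arrays. In the first panel all RHA siRNA arrays lie below all controls (243 to 498 against 873 to 1057 as intensities), while in the second panel set 1 lies above set 2 in every group.

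Of 10106 genes read by their brightest tested probe set, 1 was lower than ME1 over both fractions. That gene, EGR2, an immediate-early zinc finger transcription factor, was at log2 -1.55 and was picked out after its value was seen. In cytoplasmic RNA no gene was lower than ME1, and in polysomal RNA 34 were. These ranks describe how the gene came to be chosen and support nothing further.

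On the brightest probe set the order of ME1 levels was the same in both sets. Cytoplasmic RNA under control siRNA was highest (mean log2 10.04 ± 0.0014, SD, n = 2), followed by polysomal RNA under control siRNA (9.77 ± 0.0018), polysomal RNA under RHA siRNA (8.72 ± 0.34) and cytoplasmic RNA under RHA siRNA (8.15 ± 0.32). The upper pair differed by 0.27 and the lower pair by 0.57. Over all arrays, with the difference between the sets counted as spread, limma's 95% interval for polysomal minus cytoplasmic RNA was -0.24 to 1.38 under RHA siRNA and -1.08 to 0.54 under control siRNA, so both pairs of neighbours lay within it. With a term for the set, the interval was 0.00071 to 1.15 under RHA siRNA and -0.85 to 0.30 under control siRNA. The siRNA values that chose ME1 enter the loading under each siRNA, so these intervals describe spread and carry no test. Within a group, the RHA siRNA arrays had a far wider spread than the control arrays.

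On this probe set the polysomal share of ME1 RNA relative to the cytoplasm therefore pointed in opposite directions under the siRNAs. Polysomal over cytoplasmic RNA was log2 0.59 and 0.56 under RHA siRNA, against -0.27 and -0.27 under control siRNA. The difference between these, the loading change, was 0.85 ± 0.48 (SE), with 0.86 in set 1 and 0.83 in set 2. The siRNA values that chose ME1 enter it, so it has no test here. Averaged over both siRNAs, which the choice did not use, ME1 loading was 0.15 (95% interval -0.42 to 0.72, limma adjusted p = 1.00). The sign under control siRNA was not shared by the other ME1 probe sets, which had 0.88, 0.13, 1.29 and 0.14. For all but the last of these the sets lay on opposite sides of 0. By the median over all ME1 probe sets, loading under control siRNA was 0.14.

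The other 4 ME1 probe sets differed from the brightest in their siRNA effects. The loading change of MmugDNA.32939.1.S1_at, at 0.72 ± 0.93 (SE; 0.62 in set 1 and 0.82 in set 2), was near that of the brightest. It lay between -0.08 and 1.51 when 1 array was left out, so its sign was not stable. The loading change of MmugDNA.32937.1.S1_at was 0.37 (0.73 in set 1 and 0.004 in set 2). MmugDNA.16396.1.S1_at and MmugDNA.32119.1.S1_at had -0.39 and -0.90, with the sets on opposite sides of 0. The next brightest, MmugDNA.16396.1.S1_at, had a mean log2 of 9.06 over 8 arrays, close to the 9.17 of the probe set that speaks for the gene. It had 1663 and 180 in polysomal RNA under RHA siRNA, against 2963 and 236 under control siRNA, and in cytoplasmic RNA 1371 and 110 under RHA siRNA, against 720 and 286 under control siRNA. The set decided the level: set 1 was 7.76-fold above set 2, and the highest array was 26.9-fold above the lowest, a wider span than in 99.3% of tested probe sets. The siRNA effect over both fractions was -0.42, with 0.05 in set 1 and -0.88 in set 2. It lay between -1.33 and 0.49 when 1 array was left out, where the difference between the sets enters the value.

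MmugDNA.32939.1.S1_at was lower under RHA siRNA in cytoplasmic RNA of both sets and mixed in polysomes. It had 402 and 223 in polysomal RNA under RHA siRNA, against 536 and 178 under control siRNA, and in cytoplasmic RNA 197 and 140 under RHA siRNA, against 405 and 197 under control siRNA. The siRNA effect was -0.77 in cytoplasmic RNA (-1.04 and -0.49) and -0.05 in polysomal RNA (-0.42 and 0.32). Over both fractions it was -0.41, against -0.15 without the array that stood apart and -0.01 without the polysomal control array of set 1.

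MmugDNA.32119.1.S1_at had opposite signs in the sets. It had 273 and 108 in polysomal RNA under RHA siRNA, against 439 and 119 under control siRNA, and in cytoplasmic RNA 285 and 60.3 under RHA siRNA, against 54.4 and 161 under control siRNA. The low value of the cytoplasmic control array of set 1, the array that stood apart, gave a cytoplasmic effect of 2.39 in set 1 against -1.42 in set 2. Over both fractions the effect was 0.04, and -0.36 without that array. The dimmest ME1 probe set, MmugDNA.32937.1.S1_at, spanned 14.2 to 40.1 on the 8 arrays, partly under the limit for testing of 19.9, with an effect of -0.17 (-0.00 and -0.34).

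RNA length moved with a pair of these probe sets in set 1. The array with the lowest 3′ to 5′ difference, polysomal control at 2.66, had the highest value of MmugDNA.16396.1.S1_at and MmugDNA.32119.1.S1_at, and the array with the highest difference, cytoplasmic control at 4.25, had the lowest. In set 2 the cytoplasmic RHA siRNA array had the lowest difference, 3.68, and also the lowest value of both. The part of RNA length in these values was not tested. The positions of the probe sets on the ME1 transcript are not given in the sources used here.

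ME1 effects over both fractions thus ran from -1.47 to 0.04 among its probe sets. This range of 1.51 was wider than in all but 1.39% of 505 genes with at least 4 tested probe sets, whose median range was 0.62. The sign of the brightest probe set was shared by 3 of the 4 others, where over all genes 58.9% of further probe sets shared it. Read by the median of its 5 probe sets instead of the brightest, ME1 was at -0.41 over both fractions, -0.35 in cytoplasmic RNA and -0.41 in polysomal RNA, with a loading change of 0.37. Pearson's r between the brightest ME1 probe set and the others, over 8 arrays with each set's own mean removed, was 0.02 to 0.58, and MmugDNA.16396.1.S1_at and MmugDNA.32119.1.S1_at had 0.92 with each other. The arrays share their groups, so these are descriptions.

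**Figure D2:**
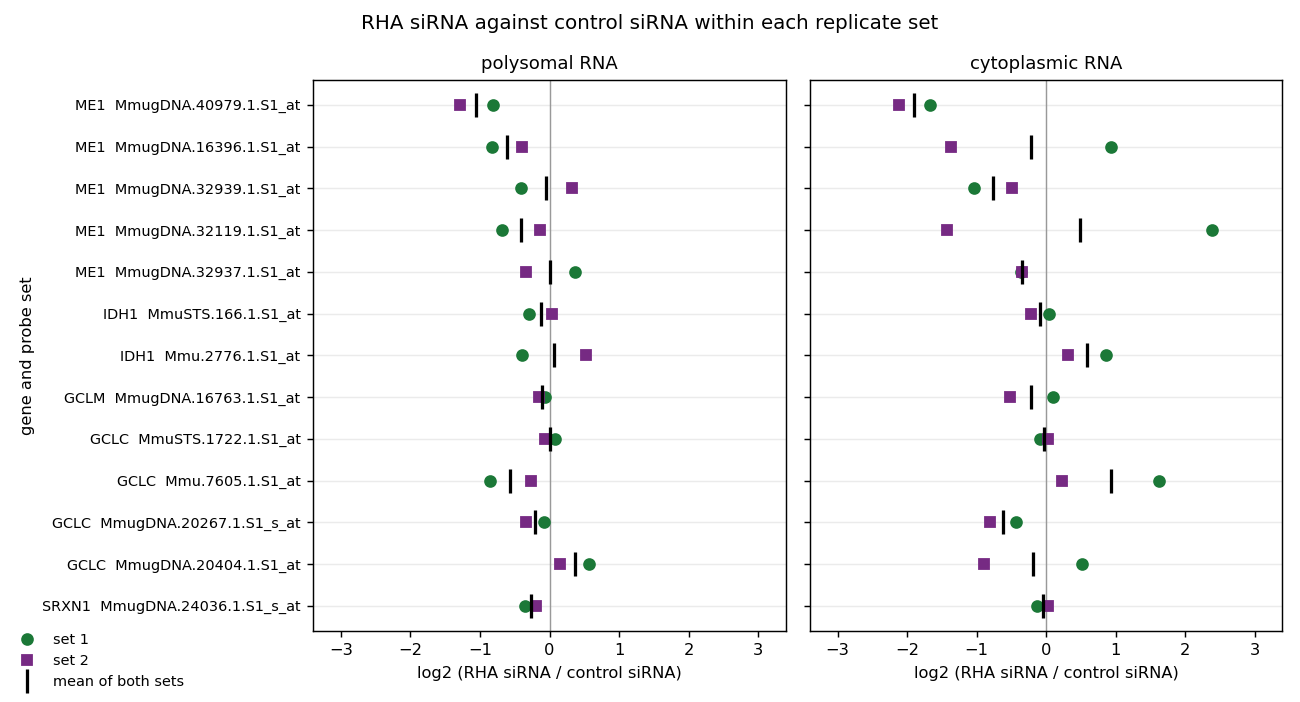
log2 of RHA siRNA over control siRNA (horizontal axis) for the 13 tested member probe sets in polysomal RNA (left) and cytoplasmic RNA (right), with 1 point per replicate set and a tick at their mean. The brightest ME1 probe set lies left of 0 in both sets and fractions, and several ME1 and GCLC probe sets have their sets on opposite sides of 0.

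IDH1, the other cytosolic NADPH source measured, followed the set and not the siRNA on the brighter of its probe sets. Its brightest probe set, MmuSTS.166.1.S1_at, had 551 and 1117 in polysomal RNA under RHA siRNA, against 675 and 1090 under control siRNA, and in cytoplasmic RNA 611 and 1033 under RHA siRNA, against 595 and 1195 under control siRNA. Every set 2 array was above every set 1 array, by 1.83-fold on average, and the siRNA groups overlapped. The siRNA effect was -0.11 (95% interval -1.07 to 0.86, limma adjusted p = 1.00), with -0.13 and -0.09 in the sets. With a term for the set, the interval was -0.49 to 0.27. Without the array that stood apart, in a fit with no such term, the effect was -0.36. The second IDH1 probe set, near the limit for testing with 15.5 to 33.9, was at 0.33 (0.24 and 0.42), the opposite sign. On it the sets overlapped, with means 0.16 log2 units apart.

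GCLC, the catalytic subunit that limits glutathione synthesis, was nearly level across the arrays on its brightest probe set. MmuSTS.1722.1.S1_at had 4890 and 6197 in polysomal RNA under RHA siRNA, against 4652 and 6486 under control siRNA, and in cytoplasmic RNA 4827 and 6183 under RHA siRNA, against 5106 and 6061 under control siRNA. Its highest array was 1.39-fold above its lowest, where the median over tested probe sets was 2.48-fold. Every set 2 array was above every set 1 array, and the siRNA groups overlapped. The siRNA effect was -0.01 (95% interval -0.60 to 0.58, limma adjusted p = 1.00), with the difference between the sets counted as spread. With a term for the set, the interval was -0.38 to 0.35. A difference within these bounds cannot be told from none in the fit concerned.

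The further GCLC probe sets spread to both sides. MmugDNA.20267.1.S1_s_at, whose suffix marks probes shared between transcripts, had 182 and 75.0 in polysomal RNA under RHA siRNA, against 192 and 94.6 under control siRNA, and in cytoplasmic RNA 79.0 and 57.0 under RHA siRNA, against 107 and 99.6 under control siRNA. The RHA siRNA array was below its control in 4 of 4 comparisons, with an effect of -0.41 (-0.26 and -0.57; limma adjusted p = 1.00), though the groups overlapped. Only this one and the brightest ME1 probe set were lower in 4 of 4 among the 13, where 8.99% of tested probe sets were. MmugDNA.20404.1.S1_at was at 0.09, with 140 and 99.5 in polysomal RNA under RHA siRNA, against 93.9 and 89.7 under control siRNA, and in cytoplasmic RNA 75.8 and 55.8 under RHA siRNA, against 53.0 and 104 under control siRNA. The dimmest one, MmugDNA.20267.1.S1_at, was too dim to be tested, at 5.16 to 10.1.

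The second brightest GCLC probe set had opposite siRNA effects in the fractions. It had 204 and 382 in polysomal RNA under RHA siRNA, against 370 and 458 under control siRNA, and in cytoplasmic RNA 393 and 447 under RHA siRNA, against 127 and 383 under control siRNA. The effect was -0.56 in polysomal RNA (-0.86 and -0.26) and 0.93 in cytoplasmic RNA (1.63 and 0.23). The loading change was -1.49 ± 0.84 (SE; -2.49 in set 1 and -0.49 in set 2; limma adjusted p = 1.00), and it was -0.69 when the array that stood apart, the lowest of the 8 values, was left out. That array also had the second highest 3′ to 5′ difference of the 8. The array with the highest difference, polysomal control of set 2 at 4.29, had the highest value of this probe set, 458. The part of RNA length in these values was not tested here. The brightest GCLC probe set had a loading change of 0.03, without this pattern.

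GCLM, the modifier subunit, had 1435 and 1702 in polysomal RNA under RHA siRNA, against 1508 and 1887 under control siRNA. In cytoplasmic RNA it had 1191 and 1174 under RHA siRNA, against 1115 and 1686 under control siRNA. The siRNA groups overlapped, and the effect was -0.16 (95% interval -0.75 to 0.43; 0.01 in set 1 and -0.34 in set 2; limma adjusted p = 1.00). Polysomal values were above cytoplasmic ones in 4 of 4 comparisons within a set, by 0.35 in set 1 and 0.35 in set 2 (95% interval -0.24 to 0.94; limma adjusted p = 1.00), as was the dimmest ME1 probe set. Over all tested probe sets, 8.67% were higher in 4 of 4.

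SRXN1 varied least of the members. Its probe set, MmugDNA.24036.1.S1_s_at, again of the shared kind, had 296 and 328 in polysomal RNA under RHA siRNA, against 376 and 374 under control siRNA, and in cytoplasmic RNA 350 and 338 under RHA siRNA, against 381 and 330 under control siRNA. The highest array was 1.29-fold above the lowest, a narrower span than in all but 0.951% of tested probe sets. The siRNA effect was -0.27 in polysomal RNA (-0.35 and -0.19) and -0.05 in cytoplasmic RNA (-0.12 and 0.03). Over both fractions SRXN1 was at 89.6% of control, with an effect of -0.16 (95% interval -0.65 to 0.34; limma adjusted p = 1.00).

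**Figure D3:**
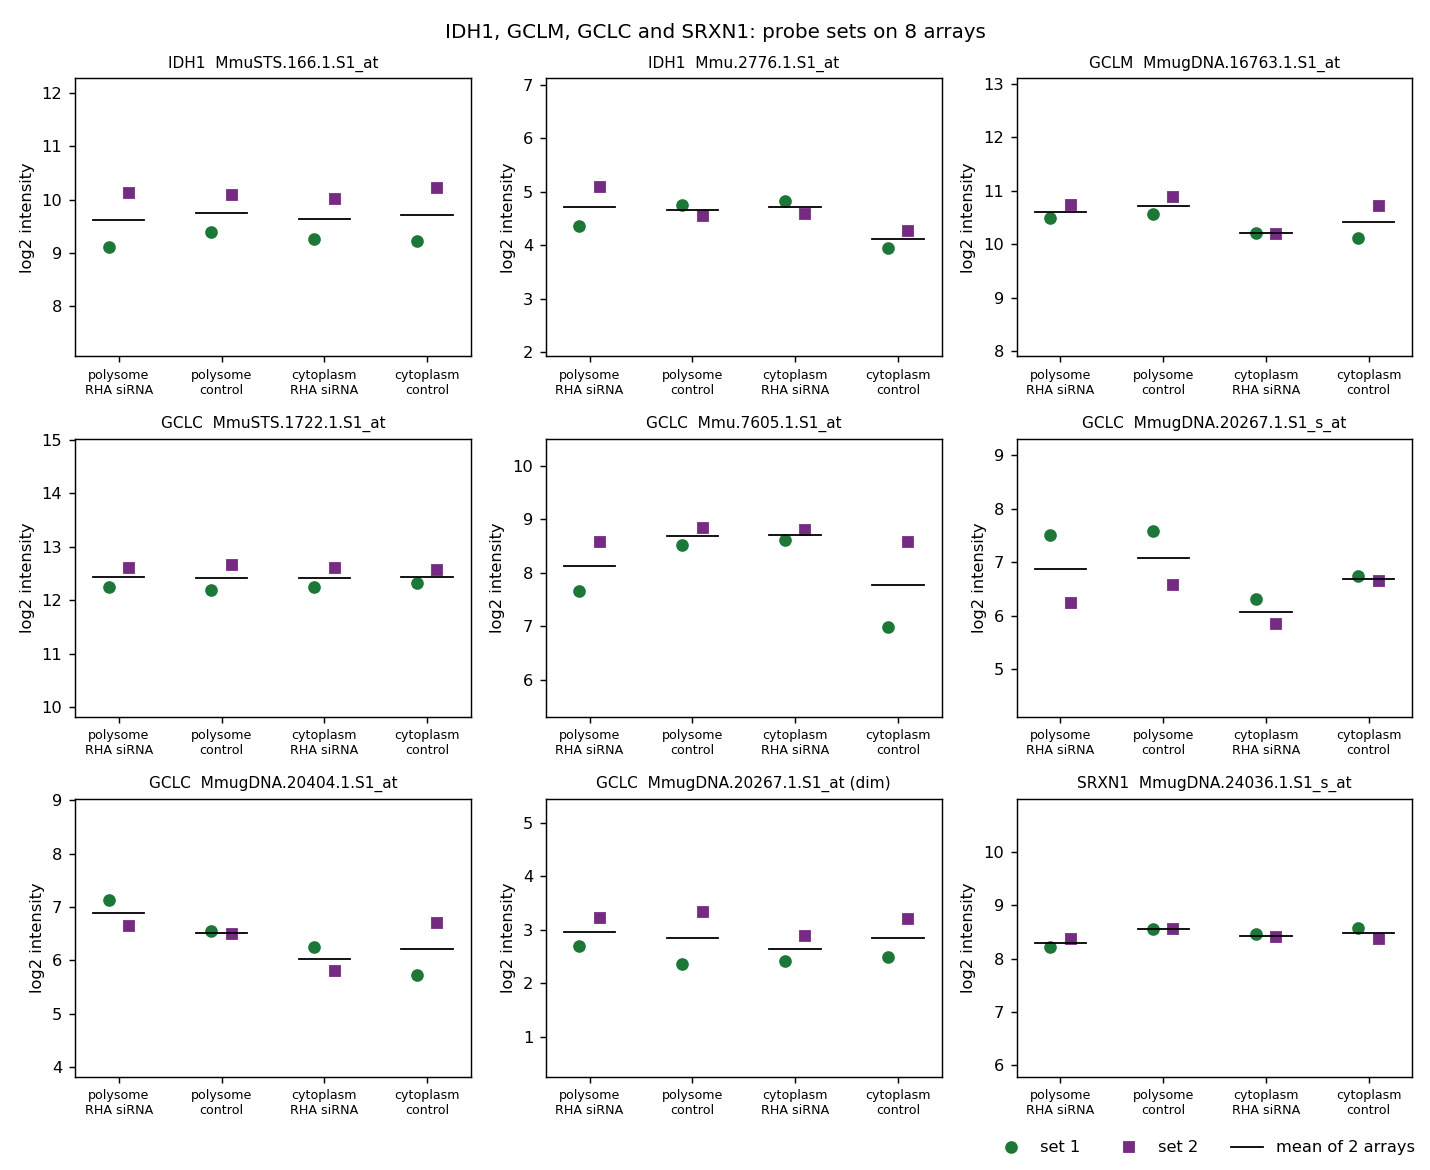
log2 intensity (vertical axis) of the probe sets of IDH1, GCLM, GCLC and SRXN1 on the 8 arrays, by group, with 1 point per array and a bar at the mean of 2 arrays. The brightest GCLC probe set and SRXN1 span 1.39-fold and 1.29-fold over all arrays, and the brightest IDH1 probe set separates by set.

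Apart from ME1, 5 of 8 tested probe sets of the members had an siRNA effect below 0 and 3 above, with a median of -0.06, and none had an unadjusted p under 0.05 (limma; lowest 0.251). With ME1 the split was 9 below and 4 above, where 45.1% of all tested probe sets were below 0, and 8 of the 13 had the same sign in both sets, where 53.0% of all did. By brightest probe set all 5 genes were below 0, but IDH1, GCLM, GCLC and SRXN1 lay between -0.16 and -0.01. Each had an interval that includes 0, with or without a term for the set. The difference between ME1 and these genes was not tested, since ME1 was chosen for its value.

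Polysomal loading over both siRNAs was above 0 in 11 of 13 tested member probe sets, with a median of 0.32, against a median of 0.07 over all tested probe sets, of which 38.3% were below 0. The same sign in both sets was seen in 10 of the 13, where 60.4% of all had it. None of the 13 had an unadjusted p under 0.05 (limma), where 0.224% of all did, and 2 had one in the fit with a term for the set. For that fit the share over all tested probe sets was not counted, so the 2 cannot be called many or few. By brightest probe set the loading of IDH1 was 0.00, of GCLC -0.00 and of SRXN1 -0.03, and the higher values were those of GCLM and of dimmer probe sets of ME1, GCLC and IDH1 (the second IDH1 probe set at 0.28). The loading change was -0.04 for IDH1, 0.10 for GCLM, 0.03 for GCLC and -0.22 for SRXN1 (limma adjusted p = 1.00 for each), with -0.22 in both sets for SRXN1.

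**Figure D4:**
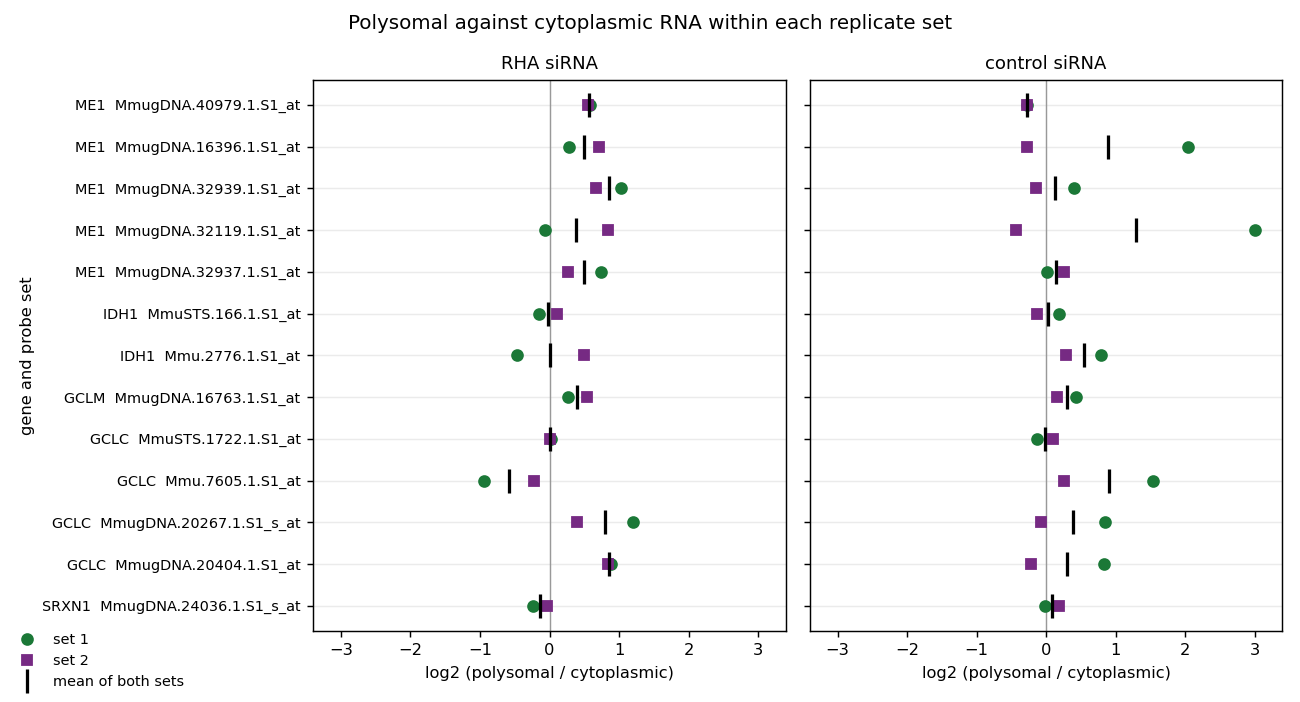
log2 of polysomal over cytoplasmic RNA (horizontal axis) for the 13 tested member probe sets under RHA siRNA (left) and control siRNA (right), with 1 point per replicate set and a tick at their mean. The brightest ME1 probe set is right of 0 under RHA siRNA (0.59 and 0.56) and left of 0 under control siRNA (-0.27 in both sets), and set 1 reaches 3.01 under control siRNA on another ME1 probe set.

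Genes other than the members were ranked by how like that of ME1 their pattern over the 8 arrays was. With each set's own mean removed, Pearson's r with the brightest ME1 probe set was 0.985 for CCDC34, a coiled-coil protein, 0.984 for DCTN4, a dynactin subunit, 0.983 for OTOF, the calcium sensor otoferlin, 0.980 for SSX2IP, a centrosomal protein, and 0.980 for TOP2B, a type II DNA topoisomerase, of 10101 genes. Their siRNA effects over both fractions were smaller than that of ME1: -0.43 for CCDC34, -0.19 for DCTN4, -0.90 for OTOF, -0.91 for SSX2IP and -0.43 for TOP2B. SSX2IP had 332 and 419 in polysomal RNA under RHA siRNA, against 545 and 651 under control siRNA, and in cytoplasmic RNA 299 and 274 under RHA siRNA, against 570 and 697 under control siRNA. Within each set its lowest value was in cytoplasmic RNA under RHA siRNA and its highest in cytoplasmic RNA under control siRNA. SSX2IP was picked for its likeness to ME1, so the shared order follows from the choice and adds no evidence. Among the members r with ME1 was 0.51 for IDH1, 0.50 for GCLM, 0.45 for SRXN1 and 0.18 for GCLC, and all these values are descriptions of 8 arrays that share groups.

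Other genes of the pathways were read from 5 lists, by the brightest tested probe set of each gene, and a gene may be in more than 1 list. None was called in any list (limma, 0.00% of all tested probe sets). Of 39 other NRF2 targets, 24 were tested: 9 were above 0 and 15 below, with a median siRNA effect of -0.04, against 0.03 over all genes. An unadjusted p under 0.05 (limma) was seen for 2 of them without a term for the set, both lower. Of all tested probe sets, 2.05% had one in that fit. With the term 4 of the 24 had one, and the share over all tested probe sets was not counted for it. NQO2, a quinone reductase related to NQO1, was at -0.68 ± 0.25 (SE; -0.78 and -0.59), and FECH, which inserts iron into heme, was at -0.72 ± 0.27 (-0.51 and -0.93). On the higher side UGDH, which makes UDP-glucuronic acid, was at 0.53 and MGST1, a microsomal glutathione transferase, at 0.37. Lower in 4 of 4 comparisons were 3 of the 24 (NQO2, FECH and the carbonyl reductase CBR3), and higher in 4 of 4 were 2 (UGDH and the exporter ABCC1), where 9.81% of all tested probe sets were higher.

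Regulators of NRF2 gave 11 tested genes of 15, with 8 above 0 and 3 below and a median of 0.07. NFE2L2, the gene of NRF2 itself, was at -0.05 ± 0.35 (SE; -0.11 and 0.02), and its inhibitor KEAP1 was at 0.23 ± 0.32. MAFK, a small Maf partner of NRF2, was at -0.43 (-0.42 and -0.44), lower in 4 of 4. NFE2L1, a related factor, was at 0.53 (0.36 and 0.70), higher in 4 of 4, and PGAM5, a mitochondrial phosphatase that binds KEAP1, at 0.42. None of the 11 had an unadjusted p under 0.05 (limma). In the fit with a term for the set 2 had one, with no share over all probe sets to set beside it.

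For the other NADPH enzymes, 10 of 20 were tested, with 4 above 0 and 6 below and a median of -0.06. PGLS, the step before PGD in the pentose phosphate pathway, was at -0.53 (-0.43 and -0.64), and transaldolase TALDO1 at -0.20. RPIA, an isomerase of the same pathway, was at 0.36, and NADK, the kinase that makes NADP, at 0.21. The mitochondrial malic enzyme ME2 was at 0.03 ± 0.73 (SE), with 0.05 in set 1 and 0.02 in set 2, lower in 2 of 4 comparisons and higher in 2.

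Glutathione, thioredoxin and peroxide enzymes gave 20 tested genes of 35, with 12 above 0 and 8 below and a median of 0.06. SOD2, the mitochondrial superoxide dismutase, was at 0.99 ± 0.42 (SE; 1.06 and 0.92), higher in 4 of 4, and the peroxiredoxin PRDX4 was at 0.51. MSRB1, a methionine sulfoxide reductase, was at -0.63 (-0.52 and -0.73), lower in 4 of 4, and GPX4, which reduces lipid peroxides, at -0.31. None of the 20 had an unadjusted p under 0.05 (limma). In the fit with a term for the set 5 had one. The share over all tested probe sets was not counted for that fit, so the 5 cannot be called many or few.

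Citrate, malate and fatty acid synthesis, which supply malate to ME1 and use its NADPH, gave 18 tested genes of 25, with 9 above 0 and 9 below and a median of -0.00. ELOVL6, a fatty acid elongase, was at 0.97 ± 0.69 (SE; 0.83 and 1.11), higher in 4 of 4, and ELOVL1 was at 0.29. SLC25A11, the mitochondrial oxoglutarate and malate carrier, was at -0.27, and ACSS2, the cytosolic acetyl-CoA synthetase, at -0.11. The loading change was below 0 in 14 of the 18, with a median of -0.24, against -0.03 over all genes, of which 53.2% were below 0. The median was -0.43 in set 1, which holds the array that stood apart, and -0.10 in set 2, which does not use it. A fit to the arrays other than that one gave -0.48 (13 of 18 below 0). That fit had no term for the set, so the difference between the sets enters its value. The same fit gave -0.26 for the glutathione list (16 of 20 below 0) and -0.32 for the NRF2 regulators (8 of 11). It gave 0.17 for the other NADPH enzymes (5 of 10) and 0.10 for the other NRF2 targets (11 of 24). With all arrays the medians of those lists ran from -0.18 to 0.02. No gene of the citrate, malate and fatty acid list had an unadjusted p under 0.05 for the loading change (limma), where 0.174% of all tested probe sets did.

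**Figure D5:**
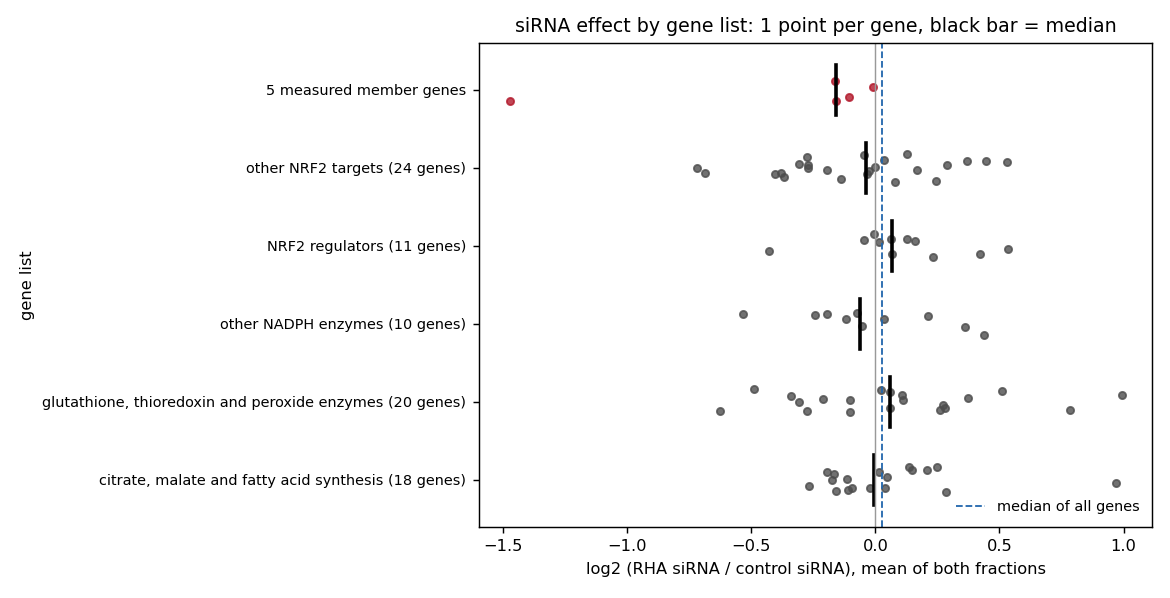
Effect of RHA siRNA over control siRNA on the log2 scale, mean of both fractions (horizontal axis), for the 5 measured members and the 5 gene lists, with 1 point per gene and a black bar at each median. ME1 lies at -1.47, left of every gene of the lists, whose medians lie between -0.06 and 0.07 around the median of all genes, 0.03.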

How the data were processed

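Each deposited value is a linear intensity per probe set and was taken as normalised by the authors. GCOS and RMA are named in the submitters' processing notes, without version or role. Log2 values were taken here. Of 52865 probe sets, 99 were controls, 24969 had 1 gene symbol, 361 had several and the other 27535 had none in the probe annotation used. Tested were the brighter 50% of the other 52766 by mean log2 over all arrays, 26383 probe sets with a limit of 4.32 (intensity 19.9). A model of 4 groups was fitted over 8 arrays with limma 3.58.1 in R 4.3.3 (two-sided, Benjamini-Hochberg over all tested probe sets, adjusted p under 0.05) for 7 contrasts, and it was tested on simulated data. With no read depth, the number of arrays limits the precision.

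Members, lists and tests were chosen with earlier results of these data known. Named were all member probe sets, with the brightest speaking for a gene, the 5 genes most like ME1, DHX9, and from each list the 2 genes per direction with the smallest p in the contrast spoken of. EGR2, ME2, KEAP1, CBR3 and ABCC1 fall outside that rule and were named after their values were seen. Alternatives were a replicate block, other filters, quantile normalisation, log2(value + 16), an intensity trend, each array left out, and the median over a gene's probe sets. A search of promoters for the antioxidant response element was not run here.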

Additional observations from a re-analysis of the deposited data

Results flagged for a closer look

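ME1, on its brightest probe set, stood out because polysomal over cytoplasmic RNA was above 0 in both sets under RHA siRNA (log2 0.59 and 0.56) and below 0 in both sets under control siRNA (-0.27 and -0.27). The difference was 0.85. It was not tested, since the siRNA values that chose ME1 enter it, and it was 0.37 by the median of the 5 ME1 probe sets. By that median the loading under control siRNA was above 0, at 0.14.

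The second brightest GCLC probe set stood out in the opposite direction: the loading was below 0 in both sets under RHA siRNA (-0.95 and -0.23) and above 0 in both sets under control siRNA (1.54 and 0.26). The difference was -1.49, with a limma adjusted p of 1.00, and it lay between -2.29 and -0.69 with 1 array left out.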

How the results depend on the processing

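With the replicate block, 2 probe sets were called for the siRNA effect over both fractions, against 0 without it: the linker histone H1-2 (2.15) and WWTR1 (1.94), neither a member. The block changed no other call. Same-numbered arrays deviated together (r of deviations from the group means 0.680 to 0.868), but the labels do not say what a number marks. Leaving out 1 array, with the lone array of its group assumed to vary like the other groups, left 0 calls in all 7 contrasts, and the members lower under RHA siRNA numbered 7 to 11 (9 with all arrays). Among 354 alternatives for 24 values of members, 297 stayed within the spread, 12 moved and 45 changed sign. Signs that changed with 1 array left out were the siRNA effects of IDH1 (-0.36 to 0.15), GCLC (-0.13 to 0.11) and the ME1 probe sets MmugDNA.16396.1.S1_at (-1.33 to 0.49), MmugDNA.32119.1.S1_at (-0.53 to 0.60) and MmugDNA.32937.1.S1_at (-0.48 to 0.14). The same held for loading of IDH1 (-0.25 to 0.26), GCLC (-0.12 to 0.12) and SRXN1 (-0.083 to 0.021), and for the loading change of IDH1 (-0.55 to 0.47), GCLM (-0.20 to 0.40) and GCLC (-0.21 to 0.27). Quantile normalisation turned the loading of IDH1 (-0.082) and GCLC (0.012) and the loading change of IDH1 (0.0035). The median over probe sets turned the siRNA effect of IDH1 (0.11), the loading of GCLC (0.16) and the ME1 loading under control siRNA (0.14). The fits with 1 array left out had no term for the set, so the difference between the sets entered these contrasts. On the brightest IDH1 probe set the sets were 0.87 log2 units apart, with siRNA effects of -0.13 and -0.09 within them. The part of this in each change of sign, and any other cause, was not tested. ME1 on its brightest probe set kept its sign in all 7 contrasts under every alternative but the median over its probe sets, which turned its loading under control siRNA.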
